A study of Homo sapiens with 20 samples.

Results

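DNA damage response and repair genes were followed in HEK293 cells, a human embryonic kidney line, before and after induction of the RNA-binding protein ZFP36. The set was a list of 53 genes in 7 repair classes, and each gene was read from the brightest of the probe sets that name it alone. In this way 46 of the 53 genes were measured, among 19353 genes in the whole series. ATRIP and PMS2 are read only by probe sets that also name another gene, TREX1 and PMS2CL, and they were not analysed here, nor were BRCA2, RBBP8, FANCA, FANCD2 and XRCC2. All 46 genes passed the filter on low values, a mean log2 value above 4.5 in at least 1 group, as did 10834 genes in all.

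Total RNA was hybridized to 20 Affymetrix U133 Plus 2.0 arrays, 5 in each of 4 groups. Induced cells carry a stable, doxycycline-inducible EGFP-ZFP36 transgene in the Flp-In T-REx background, received doxycycline at 1 µg/ml for 16 h and were sorted for green fluorescence. Mock cells are the same line given water and sorted with fluorescent cells left out. Parental cells are HEK293 cells described as parental, without that transgene, and received the same doxycycline dose (parental dox) or water (parental vehicle). For them the study's methods give a lower dilution at passage and a shorter growth before treatment. Several flasks were pooled per treatment and the work was repeated on separate days. The sources do not say whether the EGFP-ZFP36 line is 1 clone or a pool. Doxycycline-treated flasks of the EGFP-ZFP36 line were less confluent than water flasks and held more rounded and floating cells.

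Cells mend DNA by pathways that match the kind of damage. Homologous recombination copies an intact sister strand to repair a break and works mainly after replication, while end joining ligates broken ends directly. The Fanconi anaemia proteins release cross-linked strands, mismatch repair corrects copying errors, base excision repair removes altered bases, and nucleotide excision repair cuts out bulky lesions. Checkpoint kinases such as ATM, ATR, CHEK1 and CHEK2 signal the damage and hold the cell cycle. ZFP36 (tristetraprolin) binds AU-rich elements, in which its zinc fingers contact UAUU half-sites, and is known for promoting decay of the bound mRNA.

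The arrays of a group correlated with each other at a mean r of 0.9961 to 0.9986, each array against the others of its group. The probe set of ZFP36 itself read 4.56 to 5.78 on the log2 scale in induced cells and 4.85 to 5.92 in mock cells, and the sources do not say whether the transgene holds the sequence it reads. In parental cells it read 3.03 to 4.54 with doxycycline and 2.77 to 4.31 with vehicle. The study itself reported induction of the fusion protein by western blot and by cell sorting. Of 6 measured genes often found in HEK293 cells, all 6 had a mean above 4.5 in induced cells, 4 in mock cells (not NEFM and PAX2), and 5 in each parental group (not PAX2). None of 5 blood markers reached 4.5 in any group. Among 7 endothelial and fibroblast markers, COL1A1 and COL3A1 did so in every group, while PECAM1, CDH5, VWF, DCN and LUM did not. The summed log2 level of these 7 ran over the arrays of a group between 27.9 and 28.5 in induced cells, against 22.5 and 23.6 in mock cells, and its part in the results was not tested.

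Induction was followed by higher values for many repair genes and lower values for a few. Between induced and mock cells 20 of the 46 genes were called higher and 5 lower, where a call is a Bonferroni adjusted p under 0.01 over the 10834 genes tested with limma. That is 54.3% of the repair genes, 43.5% higher and 10.9% lower, beside 51.9% of all genes tested, 28.8% higher and 23.1% lower. The total share was close to the background, with more of it higher and less of it lower than over all genes; no test was made of that difference. The median difference of the 46 genes was 0.52 on the log2 scale, against 0.20 for all genes tested, and 31 of the 46 lay above that value of 0.20. For 36 of the 46 (78.3%) the 5 induced arrays did not overlap the 5 mock arrays, beside 80% of all genes tested. EXO1 had the largest rise (4.59-fold) and LIG4 the largest fall (4.55-fold). In RNA from a bulk culture, fewer cells of a kind and less RNA per cell cannot be told apart.

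Class by class, the medians of the difference between induced and mock cells stood in the order mismatch repair, homologous recombination, checkpoint signalling, nucleotide excision repair, end joining, base excision repair and Fanconi anaemia. Mismatch repair had a median of 0.88 on the log2 scale with both of its 2 measured genes called higher. Homologous recombination had 0.65, with 6 of 12 genes called higher and 1 lower, and checkpoint signalling 0.64, with 4 of 9 higher and 2 lower. Nucleotide excision repair had 0.62, with 2 of 5 higher and 1 lower. The remaining 3 classes lay lower, end joining at 0.49 with 1 of 5 higher and 1 lower, base excision repair at 0.38 with 2 of 5 higher, and Fanconi anaemia at 0.25 with 3 of 8 higher. Genes of 1 class could spread more widely than the class medians did, from -1.97 to 2.20 in homologous recombination and from -2.18 to 0.96 in end joining. The order of the classes is a description, and no test was made between them. It depended on the probe sets read: with the mean of all probe sets of a gene it ran nucleotide excision repair (0.64), base excision repair (0.55), checkpoint signalling (0.48), mismatch repair (0.47), homologous recombination (0.31), Fanconi anaemia (0.26) and end joining (0.24).

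Poly-A control transcripts, which are spiked into the RNA before labelling, read 8.80 ± 0.24 in induced and 8.43 ± 0.18 in mock arrays (SD, n = 5 each, exact permutation test, two-sided p = 0.0238). When every array was centred on these controls, 9 of the 46 repair genes were called higher and 6 lower, and the Fanconi anaemia median became -0.11. The median of all 10834 genes tested became -0.16, with 1699 called higher and 3245 lower. Of all called genes 65.6% were then lower, beside 44.5% without centring. The hybridization controls read 12.19 ± 0.11 and 12.07 ± 0.12 (exact permutation p = 0.143). With arrays centred on them, 17 repair genes were called higher and 5 lower. The all-gene median was then 0.08, with 2687 genes called higher and 2596 lower, so that 49.1% of all called genes were lower. The difference between 3′ and 5′ actin probe sets, a sign of RNA integrity, was 1.31 ± 0.13 in induced and 1.52 ± 0.14 in mock arrays (exact permutation p = 0.0476). The part of these differences in the results was not tested.

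Sequence context was available for 2 kinds of element. ZFP36 cross-linked sites were taken from the study's PAR-CLIP table, of which only a part was used here. That part held 1985 sites, with 4 sites in 3 of the 46 genes. A gene without a site in this part may have a site in the rest, so 3 of 46 is not the share of repair genes bound. The share of all tested genes with a site was not counted. MDC1 has 2 sites and NBN 1 in the 3′ UTR, and MSH3 has 1 in an intron. The sites of MDC1, called lower in induced cells, and MSH3, called higher, are shown as 1 example of each direction. Capitals mark TATT, the DNA form of the UAUU half-site, and coordinates are on hg19. The site of NBN, which was also called lower at its brightest probe set, holds 2 copies of the half-site and is not printed.
MDC1, minus strand, chr6:30667933-30667962: TATTaaatggccattttaaaattagctagt
MDC1, minus strand, chr6:30668016-30668045: ttttaatggccatttTATTtTATTtgTATT
MSH3, plus strand, chr5:80061353-80061375: ccttaatcTATTtcatatatact
The second MDC1 stretch holds 3 copies of the half-site, and each of the others holds 1.

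Promoters were searched for E2F-type octamers, since E2F factors are known to drive many replication and repair genes. The motifs TTTCCCGC, TTTGGCGC, TTTCGCGC and TTTGCCGC were looked for on both strands of the 300 bases that run from 250 before to 50 after each RefSeq start (GRCh38.p14), and matches may overlap. Such a match was present for 7 of the 42 measured repair genes with a promoter in the table (16.7%), beside 6.9% of 9019 tested genes with one and 3.99% of all 27305 genes with one. The 7 genes were EXO1, FANCC, MSH3, MSH6, TOPBP1 and XRCC6, all called higher in induced cells, and UNG, which was not called. That is 6 of 20 genes called higher, 0 of 4 called lower and 1 of 18 not called, where the shares of all tested genes were 8.34%, 6.13% and 6.36%. The matches of EXO1, TOPBP1 and UNG and 1 of the 2 of FANCC are printed, the first 3 rises in size and the gene without a call, with 10 flanking bases on each side and the octamer in capitals.
EXO1, plus strand, chr1:241848198-241848225: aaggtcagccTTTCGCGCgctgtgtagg
FANCC, minus strand, chr9:95317738-95317765: tcgtcggaatTTTCCCGCgacgccgcgg
TOPBP1, minus strand, chr3:133661931-133661958: cgcgcggttgGCGCGAAAgtcggttccc
UNG, plus strand, chr12:109098099-109098126: agggaggtttTTTGCCGCgaaaagacca
In TOPBP1 the octamer lies on the opposite strand, so its reverse complement is in capitals. A match is a string of letters and not a measured binding site.

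**Figure D1:**
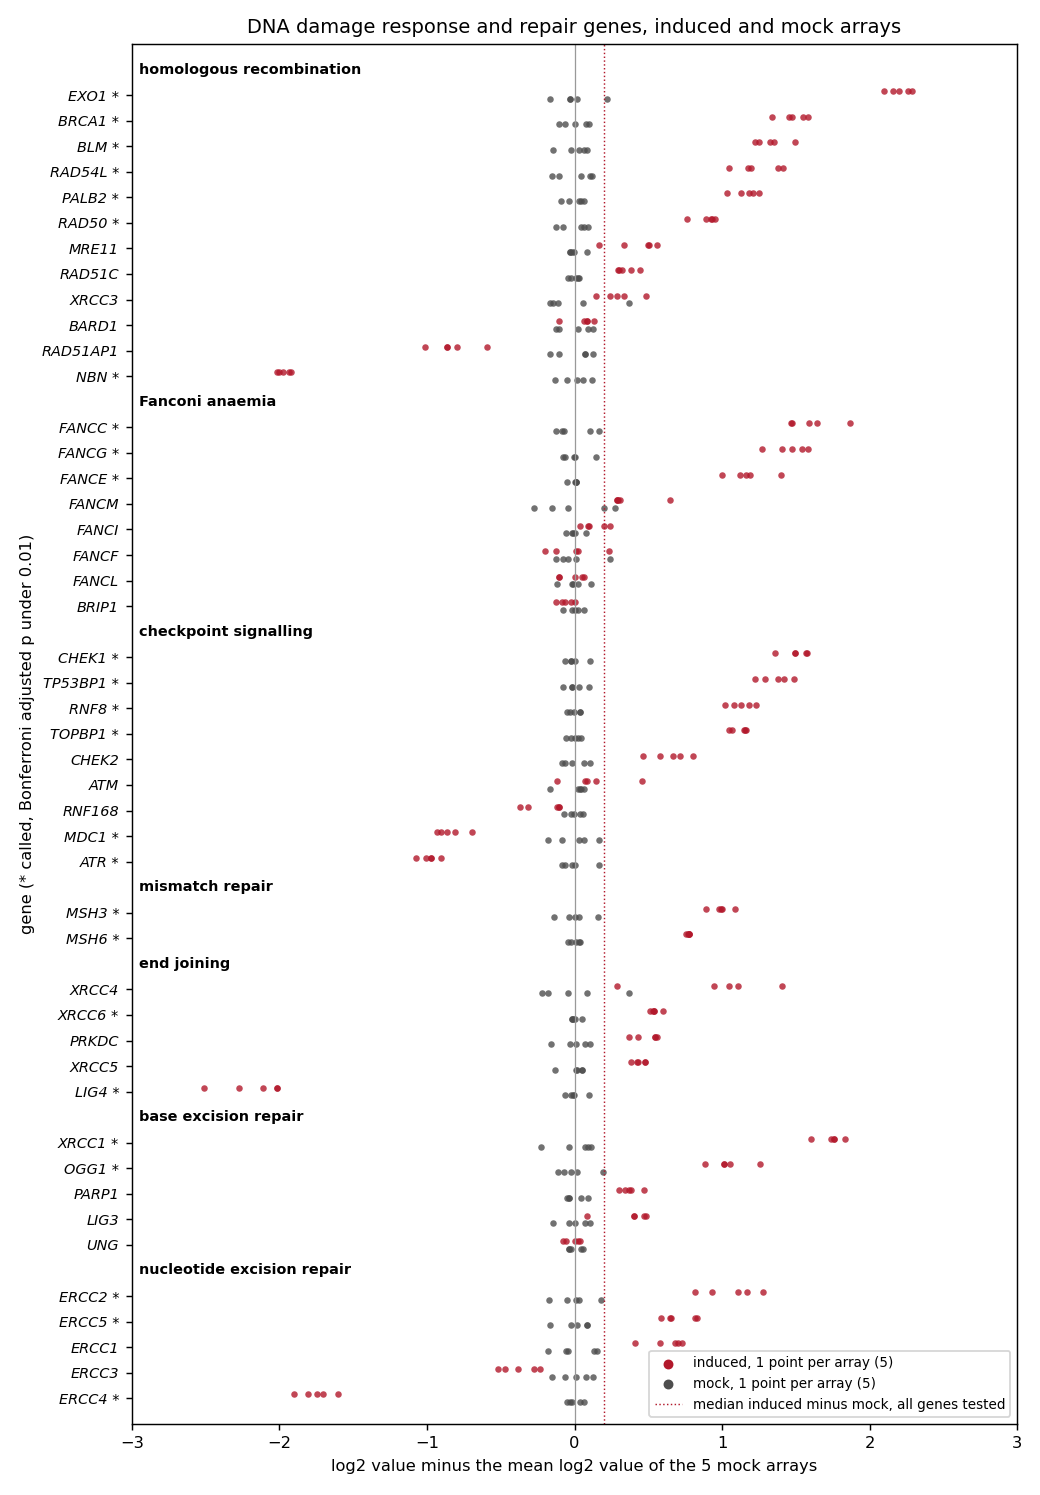
Log2 value of each of the 5 induced arrays (red) and 5 mock arrays (grey) minus the mean of the mock arrays, for the 46 measured repair genes ordered within their classes; an asterisk marks called genes and the dotted line is the median difference of all genes tested. The induced arrays of EXO1 average 2.20 and those of NBN, LIG4 and ERCC4 average -1.97, -2.18 and -1.75, apart from their mock arrays.

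Homologous recombination held the largest rise of all measured repair genes. EXO1, the exonuclease that resects broken ends, read 13.18, 13.14, 13.24, 13.08 and 13.27 on the log2 scale in the 5 induced arrays, against 11.00, 11.20, 10.95, 10.95 and 10.82 in the 5 mock arrays. Every induced array was higher than every mock array, and the difference was 2.20 ± 0.07 (SE, Bonferroni adjusted p = 6.43e-08). BRCA1, which with BARD1 forms a ubiquitin ligase that directs recombination, read 13.18, 13.16, 13.25, 13.04 and 13.29 in induced cells, against 11.64, 11.60, 11.80, 11.71 and 11.78 in mock cells. The gap of 1.48 ± 0.06 (adjusted p = 9.19e-07) was again wider than the spread of either group. BLM, the helicase that dissolves recombination intermediates, read 11.43, 11.46, 11.56, 11.70 and 11.53 in induced cells, against 10.24, 10.29, 10.18, 10.27 and 10.06 in mock cells. Its groups were equally separate, by 1.33 ± 0.06 (adjusted p = 5.01e-06). RAD54L, a motor protein that acts on DNA during recombination, PALB2, the bridge between BRCA1 and BRCA2, and RAD50, a subunit of the MRN break sensor, rose by 1.24, 1.16 and 0.89 on the log2 scale. The other 2 tested RAD50 probe sets differed by 0.18 and -0.12 without a call, and RAD50 lost its call with the mean of its probe sets (0.32) and after poly-A centring (0.53). PALB2 lost its call after poly-A centring as well (0.80).

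BARD1, the partner of BRCA1, differed by 0.05 between induced and mock cells at its brightest probe set and its arrays overlapped. Its other 2 tested probe sets differed by -0.30, without a call, and by -1.41, which was called lower (adjusted p = 0.0011). RAD51C and XRCC3, which act together in recombination, and MRE11, the nuclease of the MRN complex, differed by 0.35, 0.30 and 0.41 without a call. Another probe set of RAD51C differed by -0.46 and another of MRE11 by -0.56, also without a call, so their direction depended on the probe set. RAD51AP1, which stimulates strand pairing, differed by -0.83 and just missed the threshold (adjusted p = 0.0112), although its 5 induced arrays (11.96 to 12.38) lay below all 5 mock arrays (12.81 to 13.10).

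NBN (nibrin), the third subunit of the MRN complex, stood apart from RAD50 and MRE11. Its brightest probe set read 9.96, 10.04, 10.05, 9.97 and 10.00 in induced cells, against 11.92, 11.84, 11.99, 12.03 and 12.09 in mock cells, a difference of -1.97 ± 0.05 (adjusted p = 1.23e-08). The parental arrays lay higher still, at 12.21 to 12.50 with doxycycline and 12.33 to 12.51 with vehicle. A second NBN probe set went the other way, with 10.90, 10.78, 10.88, 10.65 and 11.01 in induced cells, against 9.71, 9.44, 9.60, 9.65 and 9.57 in mock cells. That rise of 1.25 ± 0.08 was also called (adjusted p = 0.000129, over 18639 probe sets tested), and the remaining probe set that was tested differed by 0.75 in the same direction without a call (adjusted p = 0.0584). With the mean of all NBN probe sets in place of the brightest, the difference was 0.01. The direction for NBN depended on the probe set that was read, and the position of each probe set on the transcript was not analysed here.

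The Fanconi anaemia genes separated into 3 that rose and 5 that did not pass the test. FANCC, FANCE and FANCG belong to the core complex, whose ubiquitin ligase subunit is FANCL. FANCC read 8.56, 8.38, 8.39, 8.78 and 8.50 in induced cells, against 7.08, 6.83, 6.84, 7.02 and 6.79 in mock cells (difference 1.61 ± 0.09, adjusted p = 1.98e-05). FANCG read 9.17, 9.24, 9.10, 9.28 and 8.97 in induced cells, against 7.63, 7.69, 7.70, 7.84 and 7.62 in mock cells (1.46 ± 0.07, adjusted p = 4.16e-06). FANCE read 9.34, 9.30, 9.58, 9.37 and 9.18 in induced cells, against 8.19, 8.13, 8.19, 8.19 and 8.18 in mock cells (1.17 ± 0.07, adjusted p = 2.96e-05). In all 3 genes the groups were separate. The FANCE call was lost after poly-A centring (0.81) and with a separate spread per group. FANCL, FANCF, which is also a core subunit, and BRIP1, the helicase bound to BRCA1, differed by -0.02, -0.01 and -0.06, with overlapping arrays. FANCM, which anchors the complex to DNA, differed by 0.37. FANCI, the partner of FANCD2, differed by 0.14 at its brightest probe set, while its other 2 probe sets were called higher, by 0.87 and 1.16.

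Checkpoint signalling changed in both directions. CHEK1, the kinase that restrains the cell cycle when replication stalls, read 10.94, 10.86, 10.93, 10.72 and 10.86 in induced cells, against 9.47, 9.30, 9.34, 9.34 and 9.37 in mock cells. All induced arrays were higher, by 1.50 ± 0.05 (adjusted p = 3.07e-07). A second CHEK1 probe set rose alike, by 1.46 ± 0.07, but another probe set read 7.60, 7.65, 7.88, 7.45 and 7.09 in induced cells, against 9.12, 9.13, 9.23, 9.09 and 9.19 in mock cells. It was called lower, by -1.62 ± 0.12 (adjusted p = 0.00102), and with the mean of all CHEK1 probe sets the gene lost its call. CHEK1 and NBN were the 2 genes with calls in opposite directions among the 21 genes with more than 1 tested probe set, and 9 of the 21 had differences of both signs. Over all 76 tested probe sets of the repair genes 37 were called (48.7%), 28 higher and 9 lower, beside 44% of all probe sets tested.

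TP53BP1, a chromatin reader that shields broken ends from resection, read 10.60, 10.49, 10.33, 10.53 and 10.40 in induced cells, against 9.14, 9.09, 9.09, 9.21 and 9.03 in mock cells (1.36 ± 0.06, adjusted p = 1.89e-06). RNF8, a ubiquitin ligase that marks chromatin beside a break, read 11.54, 11.49, 11.44, 11.59 and 11.38 in induced cells, against 10.33, 10.40, 10.40, 10.36 and 10.31 in mock cells (1.13 ± 0.05, adjusted p = 1.56e-06). Both genes were higher in every induced array. TOPBP1, which activates ATR, rose by 1.12 ± 0.04. After poly-A centring RNF8 (0.765) and TOPBP1 (0.754) lost their calls.

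ATR, the kinase that answers stalled replication and phosphorylates CHEK1, fell while CHEK1 and TOPBP1 rose. It read 9.54, 9.54, 9.44, 9.51 and 9.61 in induced cells, against 10.52, 10.50, 10.45, 10.68 and 10.43 in mock cells (-0.99 ± 0.06, adjusted p = 2.83e-05), and its second tested probe set was called lower as well, by -1.15 ± 0.07. MDC1, the scaffold that gathers repair factors on chromatin, read 10.60, 10.56, 10.53, 10.77 and 10.65 in induced cells, against 11.28, 11.49, 11.53, 11.63 and 11.38 in mock cells. Its induced arrays were all lower (-0.84 ± 0.07, adjusted p = 0.00229), but another MDC1 probe set differed by 0.22 and was not called, and the call at the brightest was lost when 1 array was left out in 6 of 10 cases. ATM differed by 0.13, CHEK2 by 0.64 (adjusted p = 0.0198) and RNF168, which extends the RNF8 mark, by -0.20, none of them called.

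Both measured mismatch repair genes rose. MSH6, which recognises base mismatches, read 13.58, 13.58, 13.56, 13.57 and 13.58 in induced cells, against 12.84, 12.83, 12.76, 12.81 and 12.78 in mock cells. The spread was small beside the difference of 0.77 ± 0.04 (adjusted p = 4.09e-06). MSH3, which recognises larger loops, read 10.70, 10.71, 10.80, 10.69 and 10.60 in induced cells, against 9.87, 9.71, 9.74, 9.67 and 9.57 in mock cells (0.99 ± 0.06, adjusted p = 7.44e-05). Neither gene stayed past the threshold when arrays were centred on the poly-A controls. MSH6 also lost its call after hybridization centring (0.65).

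In end joining 1 gene fell and 1 rose. LIG4 (DNA ligase IV), which seals the broken ends, read 8.77, 8.61, 8.87, 8.37 and 8.87 in induced cells, against 10.86, 10.87, 10.88, 10.82 and 10.98 in mock cells. The groups were far apart (-2.18 ± 0.09, adjusted p = 1.35e-06), and the second LIG4 probe set fell as well, by -2.60 ± 0.12 (adjusted p = 4.77e-06). The call at the brightest probe set did not hold when each group was given its own spread. XRCC4, the obligate partner of LIG4, read 8.93 to 10.05 in induced cells and 8.42 to 9.01 in mock cells, a difference of 0.96 that was not called, with the largest spread of any repair gene within a group (SD 0.41 in induced cells). A second XRCC4 probe set was called higher, by 1.07 ± 0.09 (adjusted p = 0.00233).

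XRCC6 (Ku70), which with XRCC5 (Ku80) caps the broken end, read 14.80, 14.81, 14.78, 14.87 and 14.81 in induced cells, against 14.26, 14.25, 14.27, 14.32 and 14.25 in mock cells (0.54 ± 0.04, adjusted p = 0.00026). That call was lost with the replicate number as a block, after hybridization centring (0.43) or poly-A centring (0.18), and with the mean of all probe sets (0.24). XRCC5 differed by 0.44 (adjusted p = 0.0218), and PRKDC, the DNA-dependent kinase that Ku recruits, by 0.49 (adjusted p = 0.0902). Neither was called, although in both the 5 induced arrays lay above the 5 mock arrays.

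Of the 10 measured excision repair genes, 4 were called higher, 2 in each pathway, and 1 lower. In base excision repair XRCC1, the scaffold that brings LIG3 to nicked strands, read 9.88, 9.74, 9.90, 9.97 and 9.90 in induced cells, against 8.23, 8.25, 8.21, 8.10 and 7.91 in mock cells (1.74 ± 0.07, adjusted p = 1.34e-06). OGG1, the glycosylase for oxidised guanine, read 9.44, 9.48, 9.68, 9.44 and 9.31 in induced cells, against 8.44, 8.62, 8.35, 8.40 and 8.31 in mock cells (1.05 ± 0.08, adjusted p = 0.000433). In both genes every induced array was the higher. The OGG1 call was lost with the replicate number as a block, after poly-A centring (0.68), with no filter on low values and with a separate spread per group. LIG3, the ligase bound to XRCC1, and PARP1, the sensor of nicks, differed by 0.37 and 0.38 and UNG, the uracil glycosylase, by -0.01, all 3 without a call. With the mean of all its probe sets LIG3 was called higher (0.55).

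In nucleotide excision repair the incision nuclease ERCC4 (XPF) fell, while its partner ERCC1 was not called at its brightest probe set. ERCC4 read 8.13, 8.03, 8.23, 7.93 and 8.09 in induced cells, against 9.87, 9.80, 9.90, 9.82 and 9.78 in mock cells (-1.75 ± 0.06, adjusted p = 1.23e-07). ERCC1 differed by 0.62 with separate arrays but no call (adjusted p = 0.126). With the mean of all its probe sets ERCC1 was called higher (0.70). ERCC2 (XPD), a helicase of the TFIIH complex, read 8.44, 8.26, 8.50, 8.61 and 8.15 in induced cells, against 7.51, 7.36, 7.16, 7.34 and 7.28 in mock cells (1.06 ± 0.09, adjusted p = 0.00284), and its fellow TFIIH helicase ERCC3 (XPB) differed by -0.37 without a call. ERCC5 (XPG), the nuclease that cuts on the other side of the lesion, read 10.11, 10.04, 10.27, 10.28 and 10.10 in induced cells, against 9.43, 9.47, 9.54, 9.54 and 9.29 in mock cells (0.71 ± 0.07, adjusted p = 0.00547). The ERCC5 call was lost whichever array was left out, and that of ERCC2 in 6 of 10 cases.

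Several partners in a complex or in a signalling step stood on different sides. At their brightest probe sets NBN fell while RAD50 rose, and ATR fell while TOPBP1 and CHEK1 rose, although other probe sets of NBN, RAD50 and CHEK1 differed from these, as given above. LIG4 fell while XRCC4 was called higher at 1 of its 2 tested probe sets and not at the brightest. ERCC4 fell while ERCC1 differed by 0.62 without a call at its brightest probe set, and was called higher with the mean of its probe sets.

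**Figure D2:**
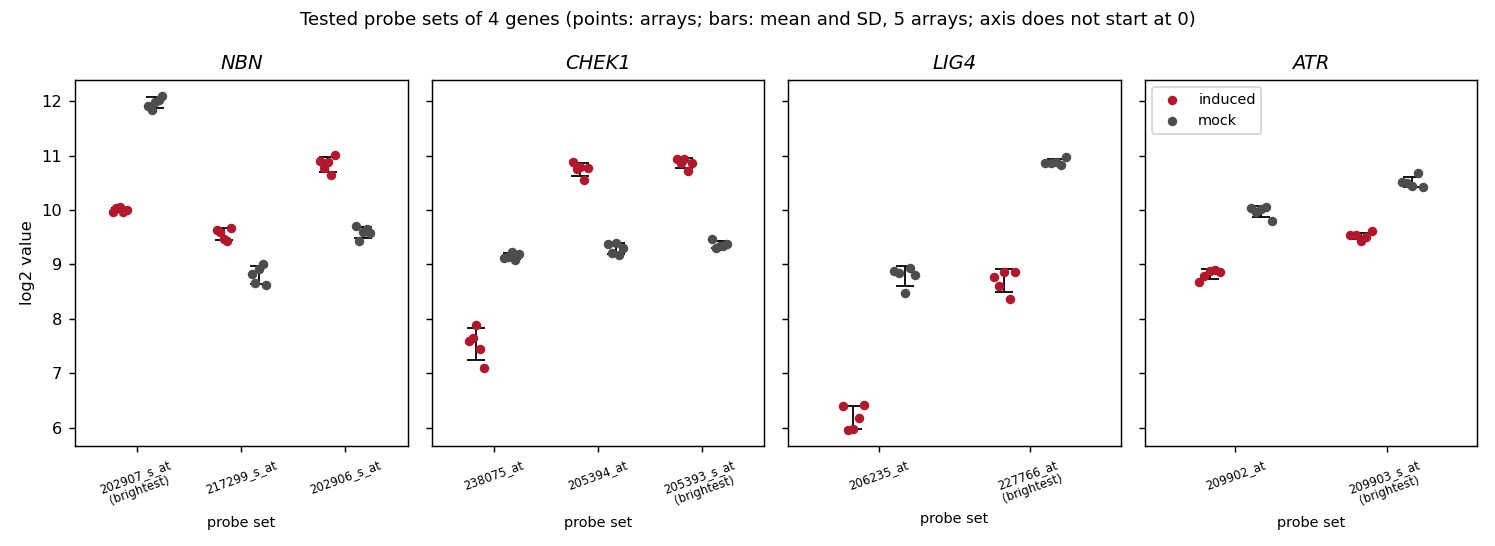
Log2 values of the tested probe sets of NBN, CHEK1, LIG4 and ATR in the 5 induced (red) and 5 mock (grey) arrays, with means and SD bars; each panel lists the probe sets from the largest fall to the largest rise. In NBN and CHEK1 1 probe set falls (by 1.97 and 1.62) and another rises (by 1.25 and 1.50), while both probe sets of LIG4 and of ATR fall.

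In parental cells doxycycline was followed by no call among the 46 genes or among all 10834 genes tested (0%). The largest difference between parental dox and parental vehicle cells was 0.13 in size, 1 gene had an unadjusted p under 0.05, and no gene had arrays that did not overlap (0.203% of all genes tested had such arrays). That gene was RNF168, which read 10.61, 10.57, 10.62, 10.47 and 10.66 with doxycycline, against 10.43, 10.32, 10.48, 10.56 and 10.50 with vehicle. FANCE had the next smallest p, and read 8.32, 8.09, 8.29, 8.17 and 8.32 with doxycycline, against 8.32, 8.25, 8.46, 8.49 and 8.33 with vehicle. In both genes the groups overlapped. Set against each other, the doxycycline difference in the EGFP-ZFP36 line and that in the parental line differed for 25 genes by the interaction term of a model with all 20 arrays, 20 higher and 5 lower. That model shares the induced and mock arrays with the comparison above, and the background was 47.9% of all genes tested, 25.8% higher and 22.1% lower. Centred on the poly-A controls 1 gene was called higher and 2 lower, beside 503 and 993 of all 10834 genes tested. Centred on the hybridization controls there were 9 and 4, beside 1147 and 2102 of all genes. The all-gene median of the term was 0.202 without centring, 0.196 after poly-A centring and 0.006 after hybridization centring. The term was 2.16 ± 0.09 for EXO1 and -2.16 ± 0.14 for LIG4.

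Before any induction the EGFP-ZFP36 line already differed from the parental line. Between mock and parental vehicle cells 4 of the 46 repair genes were called higher and 2 lower, 13% in all, 8.7% higher and 4.35% lower, beside 24% of all genes tested, 13.2% higher and 10.9% lower. The median difference of the 46 genes was 0.01 and that of all genes 0.00. In 27 of 46 genes (58.7%) the arrays of the groups did not overlap, beside 63.3% of all genes. Class medians were 0.64 for end joining, 0.43 for base excision repair and 0.38 for nucleotide excision repair, and the other 4 classes lay between -0.06 and 0.06. The lines were grown separately, and the transgene, the line and the sort that left fluorescent cells out cannot be told apart here.

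FANCF showed the largest difference between the lines. It read 8.55, 8.18, 8.23, 8.32 and 8.26 in mock cells, against 2.19, 2.29, 2.63, 2.59 and 2.52 in parental vehicle cells, where the lowest value on any array is 2.19. Taking the filter level of 4.5 as the most that the parental cells can have held, the gene was at least 14-fold higher in mock cells (adjusted p = 1.28e-10), and a second FANCF probe set was higher too, at 6.91 ± 0.19 against 2.91 ± 0.01. Induced cells, at 8.11 to 8.54, overlapped the mock cells, and parental dox cells, at 2.19 to 2.59, overlapped parental vehicle.

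LIG4 read 10.82 to 10.98 in mock cells, against 8.29, 8.57, 8.61, 8.75 and 8.87 in parental vehicle cells (2.27 ± 0.09, adjusted p = 1.68e-06). The 4 group means were 8.70 ± 0.21 in induced, 10.88 ± 0.06 in mock, 8.59 ± 0.08 in parental dox and 8.62 ± 0.22 in parental vehicle cells. Only the mock arrays stood apart, and every induced array (8.37 to 8.87) lay within the range of the parental vehicle arrays. Both comparisons share the mock arrays. Like the fall on induction, this call did not hold when each group was given its own spread.

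XRCC1 and ERCC5 were higher in mock than in parental vehicle cells, and, in the comparison that shares the mock arrays, higher in induced than in mock cells. XRCC1 read 7.91 to 8.25 in mock cells, against 7.43, 7.37, 7.45, 7.41 and 7.51 in parental vehicle cells, with no overlap (0.71 ± 0.07, adjusted p = 0.00727), a call that was lost in 9 of 10 cases when 1 array was left out. ERCC5 read 9.29 to 9.54 in mock cells, against 8.73, 8.78, 8.80, 8.74 and 8.74 in parental vehicle cells, likewise with no overlap (0.70 ± 0.05, adjusted p = 0.000781).

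RAD54L and MRE11 were lower in mock than in parental vehicle cells. RAD54L read 9.50, 9.51, 9.24, 9.44 and 9.29 in mock cells, against 10.16, 10.13, 10.13, 10.13 and 10.10 in parental vehicle cells (-0.74 ± 0.06, adjusted p = 0.00129). Induced cells read 10.77, 10.57, 10.44, 10.81 and 10.59, above both groups. MRE11 read 9.34, 9.25, 9.24, 9.22 and 9.22 in mock cells, against 9.87, 9.87, 9.98, 9.80 and 9.85 in parental vehicle cells (-0.62 ± 0.05, adjusted p = 0.000641). Another MRE11 probe set was higher in mock than in parental vehicle cells by 0.42, without a call. With the mean of all probe sets ERCC1 was called higher (1.12) and NBN lower (-0.44) between the lines, neither of them called at the brightest. None of the calls for XRCC1, ERCC5, RAD54L and MRE11 between the lines held when arrays were centred on either set of control transcripts.

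**Figure D3:**
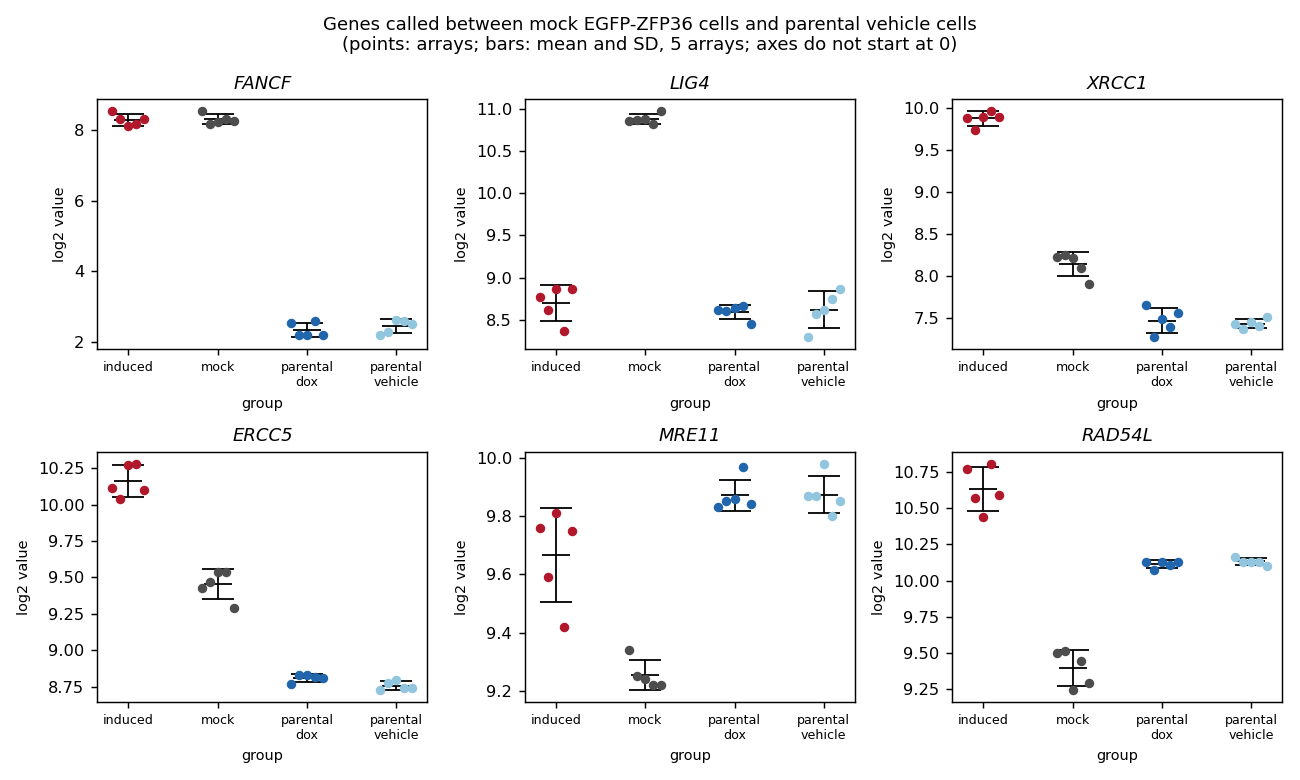
Log2 values of the 6 repair genes called between mock and parental vehicle cells, in all 4 groups of 5 arrays, with means and SD bars; the axes differ between panels and do not start at 0. FANCF is near 8.3 in both groups of the EGFP-ZFP36 line and near 2.4 in both parental groups, while LIG4 is high (10.88) in mock cells alone.

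A wider list of 109 other DNA repair genes, from the same pathways and from translesion synthesis, chromatin and nuclease functions, was counted beside the 46. Of its 95 tested genes 38 were called higher and 18 lower in induced against mock cells, with a median of 0.40. Together with the 46 genes this made 58 of 141 genes higher and 23 lower, 57.4% in all, beside 51.9% of all genes tested (28.8% higher and 23.1% lower). Cell cycle markers, whose transcripts peak in S phase or in G2 and mitosis, were counted on the same arrays. Of 14 S phase markers 7 were called higher and 2 lower (median 0.47), and of 14 markers of G2 and mitosis 5 were called higher and 4 lower (median 0.30). Their part in the changes of the repair genes was not tested.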

How the data were processed

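The deposited values are log2 expression values of 20 Affymetrix Human Genome U133 Plus 2.0 arrays, which the authors normalized with GCRMA (no version or settings are stated), a method that corrects background by probe base composition, normalizes between arrays and gives 1 value per probe set. No array was pooled or left out, and every column was tied to 1 array. The deposited arrays did not share 1 distribution: their medians over genes ran from 5.31 to 5.81, and 35.1% to 37.7% of their values lay at the lowest value. Of 50441 probe sets 38070 name 1 gene in the platform annotation. The brightest probe set by its mean over all arrays stood for a gene; probe sets ending in _s_at or _x_at can match more than 1 transcript. Genes with a group mean above 4.5 were tested with limma 3.58.1 (lmFit, eBayes) in R 4.3.3, on the 10 arrays of each comparison or, for the interaction, on all 20. A call is a Bonferroni adjusted p under 0.01 over 10834 genes. Levels were compared only within a probe set. The study's methods describe 5 separate days of work for each line, with treated and untreated cells in the experiment of each day. The passage on parental cells calls them pairs. The labels tie no replicate number to a day, so the main tests left any pairing out. The p-values measure the spread between these arrays, and 5 arrays per group limit the precision.

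Tables were made with Python 3.11.15 and pandas 2.3.3. Before use, the fitting steps were tested on simulated arrays holding known changes. Exact permutation tests (scipy 1.17.1) of array quality can reach p = 0.00794 at the least. The genes, classes and lists were chosen with earlier results of these data known. Values of every array are given, by rule, for up to 3 called rises and 3 called falls per class on induction, up to 3 of each between the lines (over all classes), the 2 smallest p in parental cells, and genes with opposite calls among their probe sets; of the 3 genes with a PAR-CLIP site the sequences come from a table held in part, and only its sequences and positions were used. Alternatives covered control-based centring, quantile normalization, filters, probe set choice, other variance models, the replicate block, Benjamini-Hochberg adjustment and each array left out.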

Additional observations from a re-analysis of the deposited data

Results flagged for a closer look

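In 13 of 184 combinations of a gene and a group of 5 arrays, 1 array stood far from the other 4 by Dixon's criterion at the 95% level, which chance alone meets in about 1 of 20 groups. In induced cells these were the highest array of FANCM (8.80) and the lowest of LIG3 (9.73). In mock cells they were the highest arrays of MRE11 (9.34) and XRCC6 (14.32) and the lowest of FANCE (8.13), ATM (8.77) and XRCC5 (13.47). Among parental dox arrays they were the highest of MRE11 (9.97) and the lowest of BRIP1 (10.53) and PARP1 (13.90), and among parental vehicle arrays the highest of FANCI (11.91) and the lowest of RAD51C (11.31) and ERCC3 (9.09).

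The doxycycline difference in the EGFP-ZFP36 line minus that in the parental line passed the interaction test for 25 genes, beside 47.9% of all genes tested. After centring on poly-A controls there were 1 higher and 2 lower calls, beside 503 and 993 of all 10834 genes tested. On hybridization controls there were 9 and 4, beside 1147 and 2102 of all genes. In homologous recombination it was 2.16 for EXO1, 1.47 for BRCA1, 1.33 for BLM, 1.26 for RAD54L, 1.04 for PALB2, 0.86 for RAD50 and -1.93 for NBN. It was 1.68 for FANCC, 1.41 for FANCG and 1.31 for FANCE among the Fanconi anaemia genes. Checkpoint genes gave 1.42 for CHEK1, 1.37 for TP53BP1, 1.22 for TOPBP1, 1.12 for RNF8, -0.87 for MDC1 and -1.04 for ATR. In mismatch repair and end joining it was 0.89 for MSH3, 0.72 for MSH6, 0.55 for XRCC6 and -2.16 for LIG4. Excision repair genes gave 1.70 for XRCC1, 1.15 for OGG1, 1.17 for ERCC2, 0.65 for ERCC5 and -1.67 for ERCC4.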

How the results depend on the processing

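Of the 25 genes called between induced and mock cells, 10 kept their call under every alternative that tested them: BRCA1, RAD54L, BLM, EXO1, FANCC, FANCG, ATR, TP53BP1, XRCC1 and ERCC4. Leaving out each array in turn gave 18 to 20 genes higher and 4 to 5 lower, and 22 of the 25 kept their call, with MDC1, ERCC2 and ERCC5 as the exceptions. Of the 6 called between mock and parental vehicle cells, FANCF alone kept its call throughout, and XRCC1 alone lost it on leaving out an array. Parental cells gave 0 calls in every alternative. The causes of the changes below were not tested. Over all probe sets and arrays 36.6% of values lay at the lowest value, 2.19, where levels have no order, and of the 46 genes FANCF alone reached it, in parental cells.

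Counts of calls were 20 higher and 5 lower for induced against mock, 4 and 2 for mock against parental vehicle, and 20 and 5 for the interaction. Centred on poly-A controls, there were 9 higher for induced against mock, 2 and 0 between the lines, and 1 and 2 in the interaction. Over all 10834 genes tested these counts were 1699, 648 and 289, and 503 and 993. Centred on hybridization controls, there were 2 and 0 between the lines and 9 higher in the interaction. Over all genes tested these counts were 1107 and 903, and 1147. The share of lower calls over all genes tested was 45.3% between the lines and 46.2% in the interaction, against 30.8% and 66.4% after poly-A centring, and 64.7% in the interaction after hybridization centring. At a Benjamini-Hochberg adjusted p under 0.05 there were 32 and 8, 18 and 17, and 31 and 8. Over all 10834 genes tested there were 5476 and 4023, 4084 and 4026, and 5105 and 3726. With a separate spread per group there were 3 lower on induction and 1 and 1 between the lines, and with all 20 arrays in 1 model 8 and 7 between the lines. Over all genes tested these counts were 1267, 532 and 438, and 2013 and 1880. Without _s_at and _x_at probe sets 3 were lower on induction and 3 in the interaction. Between the lines, no filter on low values left 1 lower and quantile normalization gave 4 lower. Over all genes these counts were 774 of 19353 and 1520 of 10834.

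Equal replicate numbers correlated at 0.155, 0.0155, 0.133, 0.22 and 0.182 between induced and mock arrays, not all arrays correlated best with their own number, and the labels tie no number to a day, so the numbers were not taken as pairs. With the replicate block, 16 genes were higher and 5 lower on induction, 2 and 0 between the lines, and 16 and 5 in the interaction. Over all 10834 genes tested there were 2029 and 1722, 669 and 364, and 2146 and 1978. On induction MDC1, OGG1, XRCC6, ERCC2 and ERCC5 lost their call with the block and RAD51AP1 gained one, and between the lines XRCC1, ERCC5, RAD54L and MRE11 lost theirs. Across the lines equal numbers correlated at 0.0888, 0.0134, -0.0207, 0.0402 and 0.113, and no source ties them to a shared day. The block between the lines therefore matches no known pairs, and its counts say nothing about pairing.

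Class medians of induced minus mock, after centring on hybridization controls, were 0.54 for homologous recombination, 0.13 for Fanconi anaemia, 0.76 for mismatch repair, 0.37 for end joining and 0.26 for base excision repair. Centred on poly-A controls, they were 0.29, -0.11, 0.52, 0.13 and 0.013 in the same order, with 0.28 for checkpoint signalling and 0.26 for nucleotide excision repair. With the mean of all probe sets they were 0.31 for homologous recombination, 0.48 for checkpoint signalling, 0.47 for mismatch repair, 0.24 for end joining and 0.55 for base excision repair. Quantile normalization gave 0.71 for homologous recombination, 0.94 for mismatch repair and 0.42 for base excision repair, and a filter above 6 gave 0.89 for homologous recombination. Without _s_at and _x_at probe sets they were 0.062 for Fanconi anaemia, 0.77 for mismatch repair, 0.33 for end joining and 0.46 for nucleotide excision repair. Leaving out an array gave 0.36 to 0.44 for base excision repair.

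Class medians of mock minus parental vehicle, after centring on hybridization controls, were -0.11 for homologous recombination, -0.026 for Fanconi anaemia, -0.10 for checkpoint signalling, -0.15 for mismatch repair, 0.34 for base excision repair and 0.29 for nucleotide excision repair. Centred on poly-A controls they were -0.061 for homologous recombination and -0.054 for checkpoint signalling. With the mean of all probe sets they were 0.11 for homologous recombination, 0.37 for end joining, 0.008 for base excision repair and 0.23 for nucleotide excision repair. Quantile normalization gave -0.038 for Fanconi anaemia and -0.049 for checkpoint signalling, and a filter above 6 gave -0.13 for homologous recombination. Without _s_at and _x_at probe sets they were 0.32 for homologous recombination, 0.30 for Fanconi anaemia, -0.057 for checkpoint signalling, -0.15 for mismatch repair and 0.32 for end joining.

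Among single genes, signs turned as follows. Between induced and mock, hybridization centring gave BARD1 -0.068; poly-A centring ATM -0.23, BARD1 -0.31, FANCI -0.23, RAD51C -0.015 and XRCC3 -0.063; the mean of probe sets BARD1 -0.55, FANCF 0.26, MRE11 -0.082, NBN 0.008 and RAD51C -0.056; quantile normalization BRIP1 0.031, FANCL 0.002 and UNG 0.003; and leaving out _s_at and _x_at probe sets MRE11 -0.56. Between mock and parental vehicle, hybridization centring gave MSH3 -0.070 and RNF168 -0.088; poly-A centring MSH3 -0.021 and RNF168 -0.038; the mean of probe sets MDC1 -0.032, RAD50 0.60, RNF168 -0.007, TP53BP1 0.034 and XRCC6 0.12; quantile normalization MSH3 -0.013 and RNF168 -0.049; and leaving out _s_at and _x_at probe sets MRE11 0.42 and RAD50 0.56. Apart from NBN on induction and MRE11 between the lines, none of these genes was called at its brightest probe set. Other probe sets of BARD1 and FANCI were called on induction, as given above. Between the lines, another RAD50 probe set was called higher in mock than in parental vehicle cells, by 1.38 (limma, adjusted p = 0.000747 over all probe sets tested). The brightest RAD50 probe set differed by -0.13 and the remaining tested one by 0.56, both without a call. Leaving out 1 array turned signs of uncalled genes only, with -0.073 to 0.049 for FANCF, -0.050 to 0.008 for FANCL and -0.027 to 0.002 for UNG on induction, and -0.035 to 0.056 for MSH3, -0.032 to 0.028 for RNF168 and -0.026 to 0.008 for TOPBP1 between the lines.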
